A study of Mus musculus with 12 samples.

Results

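The 29 genes described here encode the receptors, synthetic enzymes, transporters and scaffold of synapses that use GABA or glycine, the main inhibitory transmitters of the retina. They were chosen by name, for their known roles, from the 55487 genes of the deposited expression table. They comprise 14 GABA-A receptor subunits, the GABA-B subunits *Gabbr1* and *Gabbr2*, the 5 glycine receptor subunits, the scaffold gephyrin (*Gphn*), the enzymes *Gad1*, *Gad2* and *Abat*, the transporters *Slc32a1*, *Slc6a5* and *Slc6a9*, and the chloride exporter *Slc12a5*. The list is a selection and is not meant as the complete set of such genes. RNA-seq was available for 12 libraries of whole mouse retina in 6 groups of 2. WT retinas came from B6J mice and received an intravitreal injection of 1 μL of PBS or of 40 mM NMDA, which is 40 nmol. JNK3 KO retinas came from Jnk3-/- mice, knockouts of the kinase gene *Mapk10*, and received the same PBS or NMDA. sh*Pax6* retinas came from WT mice infected with 2 μL of AAV2.7m8 carrying pU6-sh*Pax6*-GFP at 2 months of age. They then received the same PBS or NMDA. The study's methods and its legend name different routes for the vector, subretinal and intravitreal. The time between injection and collection is not given in the labels. None of the 12 libraries came from retinas infected with a scrambled hairpin, so infection and knockdown of *Pax6* cannot be told apart. RNA of more than 3 retinas was pooled for a library. The study calls its replicates biological, but nothing in the labels says that the 2 libraries of a group came from different animals. P-values therefore measure the spread between these libraries alone.

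GABA-A and glycine receptors are chloride channels built of related subunits around a central pore, whereas GABA-B receptors are G protein-coupled dimers. In the retina, amacrine cells release GABA or glycine onto bipolar cells, retinal ganglion cells (RGCs) and each other, and *Gabrr* subunits form GABA receptors of bipolar cell terminals. NMDA opens a class of glutamate receptor that RGCs and amacrine cells carry, and in excess it kills neurons by excitotoxicity.

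Expression is given in FPKM, fragment counts scaled to transcript length and library size. Fold changes are log2 differences of FPKM + 0.1 ± standard error. A gene was called higher or lower at a Benjamini-Hochberg adjusted p under 0.05 over the 16471 genes with a mean above 1 FPKM in at least 1 group. The targeted genes were examined first. *Pax6* was at 173 and 177 FPKM with PBS and 55.4 and 53.8 with NMDA in WT retinas, at 94.6 and 92.8 against 67.5 and 58.7 in sh*Pax6* and at 187 and 191 against 129 and 138 in JNK3 KO retinas. It was thus lower in sh*Pax6* than in WT retinas with PBS (log2 fold change −0.90 ± 0.07, adjusted p = 6.04e-05). With NMDA its FPKM in sh*Pax6* retinas was not below that of WT, which itself had fallen (−1.68 ± 0.07, adjusted p = 1.21e-07, or −0.63 after correction for gene length). This order depends on the scale, since the WT minus sh*Pax6* difference of the responses was −1.11 on FPKM but −0.06 with length correction, where *Pax6* in sh*Pax6* retinas was lower than in WT by −0.81 with PBS and stayed below it with NMDA. *Mapk10* was at 42.8 and 50.7 FPKM with PBS and 8.98 and 6 with NMDA in WT retinas, at 9.47 and 8.75 against 6.65 and 13.8 in JNK3 KO retinas, and at 20.9 and 21.3 against 16.2 and 8.85 in sh*Pax6* retinas. With PBS the knockout libraries lay below WT (−2.34 ± 0.36, adjusted p = 0.0215), while with NMDA the *Mapk10* values of JNK3 KO and WT libraries overlapped. Reads from *Mapk10* exons that remain in the knockout allele were not separated from the rest.

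The 2 WT NMDA libraries stood apart from the other 10 before any gene was tested. Their FPKM over all genes summed to 805627 in WT NMDA 1 and more in WT NMDA 2, against at most 576922 elsewhere. The FPKM-weighted mean length of their transcripts was 1388 and 1366 bases, against 1877 to 2008. In the WT response to NMDA, the share of genes called lower climbed with spliced length, from 8.16% of genes under 2 kb through 19.7%, 40.8% and 54.1% to 71.9% of those over 8 kb. The corresponding shares in sh*Pax6* retinas were 6.69% and 15.8%, and in JNK3 KO retinas 6.64% and 3.49%. The inhibitory synapse genes are long, with a median of 5.98 kb against 3.92 kb for all genes tested, so WT falls and rises of single genes are also given with every library corrected for its trend on gene length. Rescaling to TPM, which removes the difference in FPKM sums, moved the all-gene median of the WT response by −0.56, from −0.09 to −0.66. The part of gene length or RNA quality in the WT response was not tested.

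**Figure D1:**
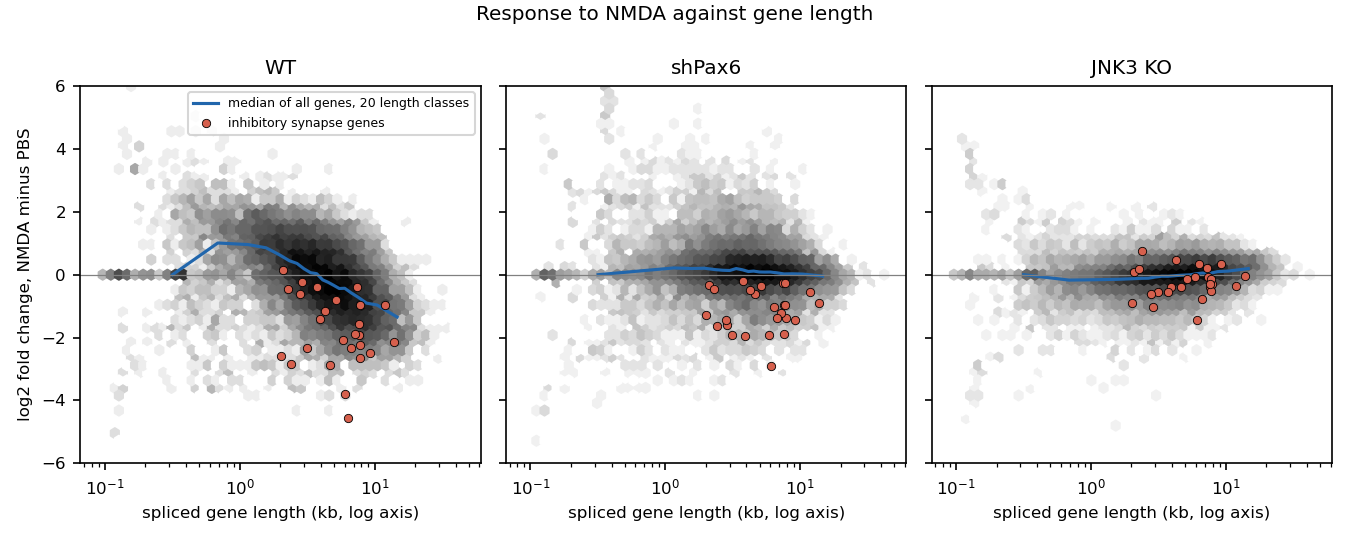
Log2 fold change of NMDA over PBS (y axis) against spliced gene length in kb (x axis, log scale) for all genes tested (grey, darker where more genes lie) in WT, sh*Pax6* and JNK3 KO retinas. The blue line is the median of all genes in 20 length classes, and red points are inhibitory synapse genes. In WT the median of all genes fell from 0.75 under 2 kb to −1.05 over 8 kb, and the line was nearly flat in the other genotypes.

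In WT retinas with PBS, *Slc12a5* was the most abundant of the genes at 167 and 161 FPKM, followed by *Gad1* at 108 and 105. *Slc6a9* and *Gabbr1* came next with overlapping values of 65.3 and 65.9 and 65.8 and 62.3 FPKM, and then *Gabrr2* at 48.6 and 51.5 and *Gabrr1* at 40.1 and 40.2. *Gabrr2* and *Gabrr1* were therefore the most abundant ionotropic receptor subunits per length of transcript. *Glrb* and *Slc32a1*, at 35.8 and 33.5 and 33.6 and 33.3 FPKM, overlapped each other, and *Abat*, *Gphn*, *Gabbr2*, *Gabra3* and *Gad2* followed at means of 32.4, 20.9, 13.5, 12.6 and 11.2 FPKM without overlap. The other genes that passed the filter lay between means of 8.94 (*Gabrd*) and 1.21 FPKM (*Glra4*), and most neighbours among them overlapped. *Gabra5* (0.06 to 0.59 FPKM over the 12 libraries) and *Gabre* (0 to 0.26) stayed under the filter, and *Gabra6* was listed at 0 in all 12. Of the 29 genes, 26 could thus be tested, and those passed partly because they are expressed in WT retinas with PBS.

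**Figure D2:**
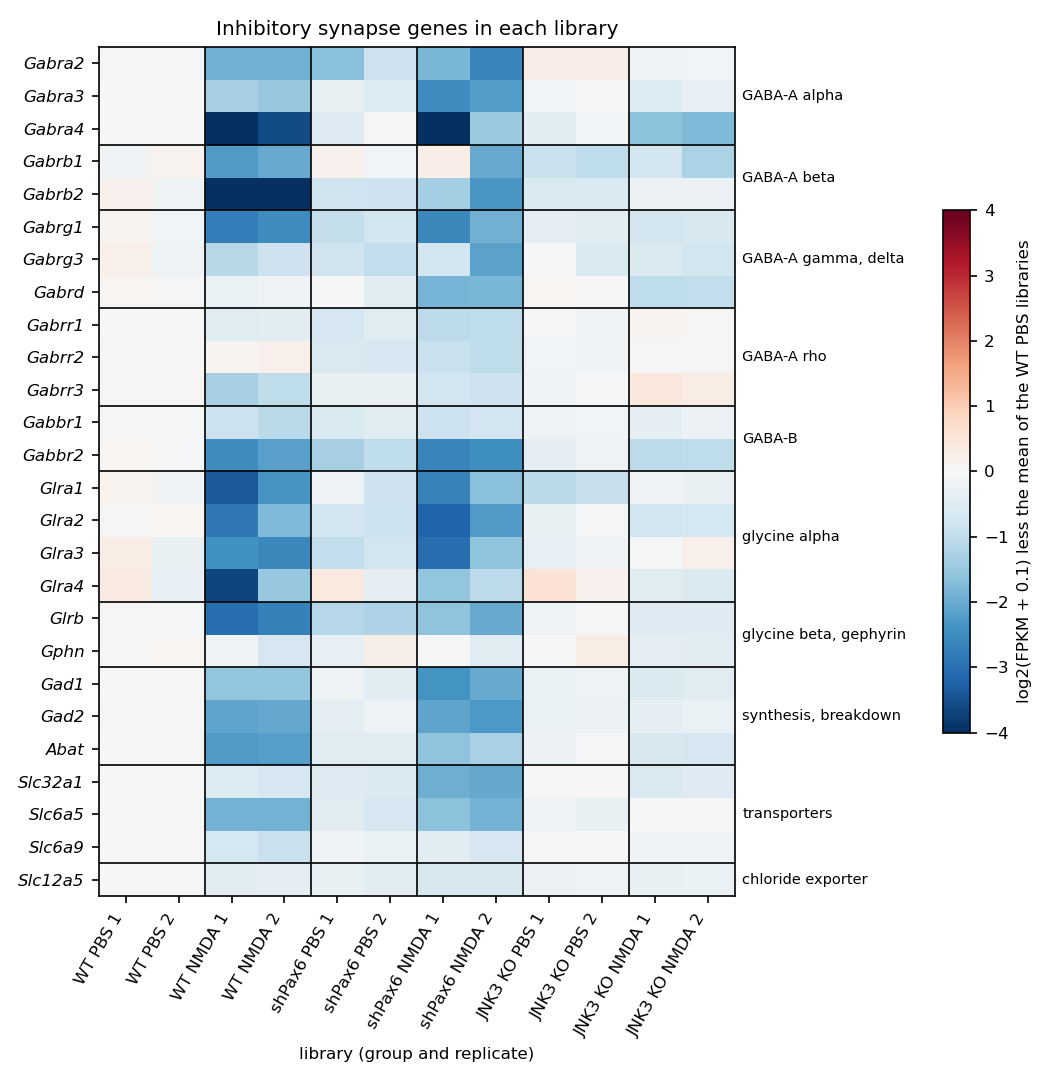
Each cell shows log2(FPKM + 0.1) of a gene in a library, less the mean of the 2 WT PBS libraries (colour scale from −4 to 4), for the 26 genes tested (rows, grouped by role) in the 12 libraries (columns). The WT NMDA and sh*Pax6* NMDA columns are blue in most rows, *Gabrr2* is not in WT NMDA, and the JNK3 KO columns stay pale.

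In WT retinas, 22 of the 26 genes were lower after NMDA, against 33.8% of all genes tested, and limma called 0 higher (1 at unadjusted p under 0.05), against 26%. Their median log2 fold change was −1.91, where that of all genes was −0.09. It was −1.25 after length correction and −2.49 on the TPM scale. Of all calls in the WT response, 56.5% were lower, a share that became 78.6% on the TPM scale and 49.2% after length correction. Of the inhibitory synapse genes, 26 and 22 were called lower under these settings, against 50.2% and 25.5% of all genes. In sh*Pax6* retinas, 20 were lower after NMDA, against 11% of all genes, and 0 were higher (0 at unadjusted p under 0.05), against 19.1%. The median there was −1.12 against 0.10 for all genes, and −1.19 after length correction. The share of all calls that were lower was 36.6%, or 42.6% with TPM and 51.7% with length correction. In JNK3 KO retinas, 4 genes were lower (*Gabrd*, *Gabbr2*, *Abat* and *Slc32a1*; 8 at unadjusted p under 0.05 in limma), against 6.1% of all genes, and 0 were higher (2 at unadjusted p under 0.05), against 4.33%. The median was −0.30 against −0.01. By these counts, the fall covered most of these genes in WT and sh*Pax6* retinas and few in JNK3 KO retinas. The sh*Pax6* and JNK3 KO responses were not tested against each other. Of the 4 genes lower in JNK3 KO retinas, *Gabrd* was not called in WT retinas on the FPKM scale. WT and sh*Pax6* responses had 18 of the lower genes in common, which are 18 of 22 and 18 of 20. With 22 and 20 of 26 genes lower, most had to be in common, so this overlap is no result of its own.

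The size of the JNK3 KO count depended on single libraries. Without JNK3 KO PBS 1, JNK3 KO PBS 2, JNK3 KO NMDA 1 or JNK3 KO NMDA 2 it was 1, 2, 1 and 2, and *Slc32a1* kept its call each time. The sh*Pax6* count ranged from 14 (without sh*Pax6* PBS 1) to 21 (without sh*Pax6* NMDA 1), and was 4 when the spread was taken from those 4 libraries alone. With the spread of the JNK3 KO libraries alone, the JNK3 KO count was 5. Which of these 2 counts was the larger thus depended on how the spread was estimated. When a library is left out, the other of its group is assumed to vary like the other groups.

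**Figure D3:**
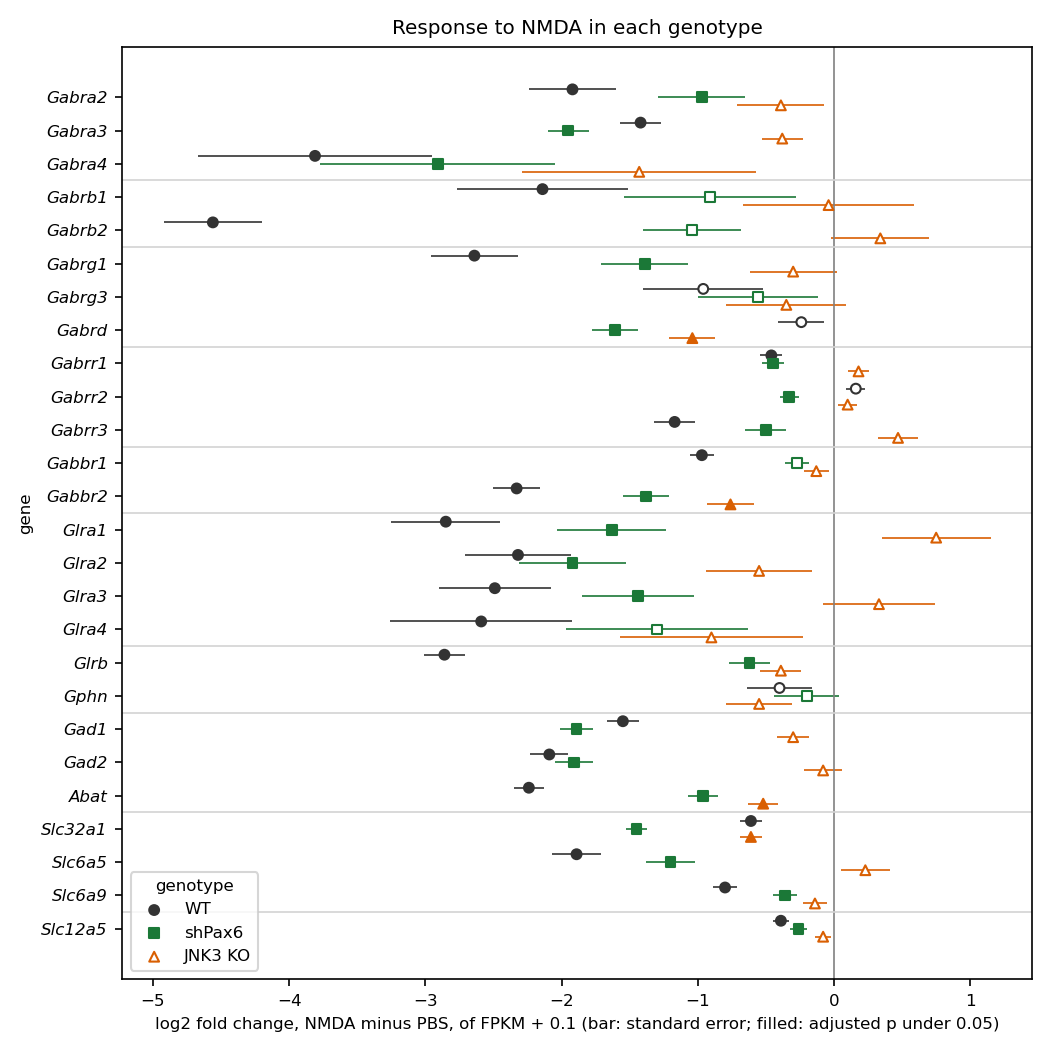
Log2 fold change of NMDA over PBS on the FPKM + 0.1 scale (x axis) for the 26 genes tested (y axis, grouped by role) in WT (circles), sh*Pax6* (squares) and JNK3 KO retinas (triangles). Bars are standard errors from the fit of all 12 libraries, with 2 libraries a group, and filled symbols mark adjusted p under 0.05. The WT symbols lie farthest to the left for *Gabrb2* and *Gabra4*, the sh*Pax6* symbols lie left of the WT symbols for *Gabrd* and *Slc32a1*, and most JNK3 KO symbols lie near 0.

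Differences between the responses were tested as interactions. The response of WT minus that of sh*Pax6* retinas was lower in 8 genes, meaning a deeper fall in WT, against 31.4% of all genes, and higher in 3 (*Gabrd*, *Gabrr2* and *Slc32a1*), against 18.3%. The 8 are near the background share. WT minus JNK3 KO was lower in 18 genes, against 27.9% of all genes, and higher in 1 (*Gabrd*), against 23.5%. These 18 were all among the 22 that fell in WT, but the WT response is itself part of this difference, so the overlap is not a separate result. Both interaction tests share the WT libraries, and both moved with scaling. The WT minus sh*Pax6* counts became 14 lower and 2 higher with TPM, against 47.2% and 9.2% of all genes. With length correction they were 3 lower and 5 higher, against 18.5% and 21.3%. The share of all WT minus sh*Pax6* calls that were lower went from 63.2% to 83.7% and 46.5%. For WT minus JNK3 KO the counts became 21 lower and 0 higher with TPM, against 42.3% and 12.8% of all genes. With length correction they were 16 and 1, against 19.1% and 22.1%. The shares of calls that were lower were 54.3%, 76.8% and 46.3%.

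Cell type markers were described in the same responses. Of 23 amacrine markers tested, none of them among the inhibitory synapse genes, 15 were lower and 2 higher in WT, 18 lower in sh*Pax6* and 4 lower in JNK3 KO retinas. Their medians were −1.21, −1.83 and −0.36. Their FPKM summed to 623 and 620 against 482 and 468 in WT, 415 and 406 against 157 and 139 in sh*Pax6* and 615 and 590 against 337 and 333 in JNK3 KO retinas, PBS against NMDA. The most abundant amacrine marker, the calcium-binding protein gene *Calb2*, was at 265 and 285 against 130.1 and 132, 145 and 148 against 12.1 and 10.5 and 297 and 285 against 57.4 and 55.3 FPKM in the same order, so its fall was deepest in sh*Pax6* retinas. In WT its log2 fold change was −1.07 (−1.78 length-corrected). *Calb2* made up most of the fall of the summed amacrine FPKM in WT and JNK3 KO retinas. Of 21 RGC markers tested, 14 were lower and 1 higher in WT, 13 lower in sh*Pax6* and 13 lower in JNK3 KO retinas. Their medians were −1.48, −2.29 and −1.55, or −2.06, −2.35 and −1.55 with TPM and −1.67, −2.46 and −1.44 with length correction. Which of the WT and JNK3 KO medians was the lower thus depended on the scale. The sums of the RGC markers, without rescaling, were 868 and 897 against 550 and 563, 297 and 296 against 134 and 113 and 871 and 834 against 266 and 265. The neurofilament gene *Nefl* led the list at 162 and 160.3 against 27.7 and 25.5, 40.5 and 35.3 against 7.56 and 7.73 and 141 and 138 against 32.6 and 32.3 FPKM, with a WT log2 fold change of −2.60 (−2.70 length-corrected). Most of the 21 RGC markers tested were therefore called lower in each genotype. The summed FPKM of the 29 inhibitory synapse genes was 726 and 706 against 397 and 396 in WT, 535 and 513 against 334 and 325 in sh*Pax6* and 634 and 662 against 567 and 578 in JNK3 KO retinas. In whole retina, fewer cells of a type and less RNA per cell cannot be told apart, and the part of cell loss in the results on single genes was not tested.

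The subunits of GABA-A and glycine receptors share a loop closed by a pair of cysteines in their extracellular part, which gives the Cys-loop family its name. Its coding sequence is shown for 8 subunits on which the results turn, to let their relatedness be seen. Each stretch has 45 bases and lies in 1 exon of the GENCODE M21 transcript (GRCm38), and capitals mark the first and last cysteine codons.

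*Gabra3* (chrX:72476245-72476289, minus strand): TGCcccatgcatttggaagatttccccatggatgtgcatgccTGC
*Gabrb2* (chr11:42529431-42529475, plus strand): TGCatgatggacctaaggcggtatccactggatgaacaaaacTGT
*Gabrd* (chr4:155387877-155387921, minus strand): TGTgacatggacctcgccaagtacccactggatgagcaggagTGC
*Gabrr1* (chr4:33157079-33157123, plus strand): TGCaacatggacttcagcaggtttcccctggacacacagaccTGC
*Gabrr2* (chr4:33082298-33082342, plus strand): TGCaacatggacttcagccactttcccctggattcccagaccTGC
*Glra1* (chr11:55533843-55533887, minus strand): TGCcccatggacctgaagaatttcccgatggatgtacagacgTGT
*Glra2* (chrX:165257125-165257169, minus strand): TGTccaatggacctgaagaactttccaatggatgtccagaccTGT
*Glrb* (chr3:80861722-80861766, minus strand): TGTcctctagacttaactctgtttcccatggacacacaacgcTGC

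Among the 19 subunits of these families in the list, the 171 pairs differed at 6 to 25 of the 45 bases. *Gabrr1* and *Gabrr2* differed at 6, as did *Glra2* and *Glra4*, and every pair remained distinct over this stretch. Several of the genes are neighbours. *Gabrg1*, *Gabra2*, *Gabra4* and *Gabrb1* lie in a row on chromosome 5, *Gabrr2* and *Gabrr1* lie side by side on chromosome 4, *Gabra6* and *Gabrb2* on chromosome 11, and *Gabrg3* and *Gabra5* on chromosome 7. Neighbours did not always share a level, since *Gabra6* was listed at 0 beside *Gabrb2*.

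Alpha and beta subunits form the GABA binding site. *Gabra2* was at 6.52 and 6.22 FPKM with PBS and 1.6 and 1.62 with NMDA in WT retinas, at 1.94 and 3.55 against 1.74 and 0.95 in sh*Pax6* and at 7.6 and 7.73 against 5.66 and 5.96 in JNK3 KO retinas. It fell in WT (−1.92 ± 0.32, adjusted p = 0.000599, −1.24 length-corrected) and in sh*Pax6* retinas (−0.97 ± 0.32, adjusted p = 0.0455). The JNK3 KO value was −0.39 ± 0.32, adjusted p = 0.512. The sh*Pax6* call was lost without sh*Pax6* PBS 2 (−0.55, adjusted p = 0.235) or without sh*Pax6* NMDA 2 (−0.57, adjusted p = 0.218). *Gabra3*, the most abundant alpha subunit measured, was at 12.7 and 12.6 FPKM with PBS and 5 and 4.35 with NMDA in WT, 10.4 and 8.68 against 2.18 and 2.6 in sh*Pax6* and 11.6 and 12.7 against 8.62 and 10 in JNK3 KO retinas. Its log2 fold changes were −1.42 ± 0.15 (−1.37 length-corrected), −1.95 ± 0.15 and −0.38 ± 0.15, and the first 2 were called (adjusted p = 4.2e-05 and 2.69e-05). NMDA and PBS values of *Gabra3* did not overlap in any genotype, and the WT fall exceeded that of JNK3 KO retinas (difference −1.04 ± 0.22, adjusted p = 0.0034). *Gabra4* went from 2.7 and 2.64 to 0.07 and 0.13 FPKM in WT, from 1.85 and 2.78 to 0 and 0.9 in sh*Pax6* and from 1.96 and 2.48 to 0.79 and 0.72 in JNK3 KO retinas. It fell in WT retinas (−3.81 ± 0.86, adjusted p = 0.00392, −3.34 length-corrected), from NMDA values near the added 0.1, and the fold change ranged from −4.50 to −1.74 over the alternatives. The JNK3 KO value was −1.43 ± 0.86, adjusted p = 0.36. The sh*Pax6* NMDA libraries differed widely from each other, and the call of *Gabra4* there (−2.91 ± 0.86, adjusted p = 0.0316) was lost without sh*Pax6* PBS 1 (adjusted p = 0.0828) or sh*Pax6* PBS 2 (adjusted p = 0.13).

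The largest change of any of these genes was that of the beta subunit *Gabrb2* in WT retinas. It was at 9.41 and 7.47 FPKM with PBS and 0.16 and 0.4 with NMDA there, 23.6-fold lower (−4.56 ± 0.36, adjusted p = 5.54e-06, −4.05 length-corrected). Its NMDA values are near the added 0.1, and over the alternatives the fold change ranged from −5.21 to −2.88, the latter with a pseudocount of 1. In sh*Pax6* retinas its values were 4.82 and 4.68 against 3.18 and 1.6 FPKM (−1.04 ± 0.36, adjusted p = 0.0584), and in JNK3 KO retinas 5.61 and 5.6 against 7.07 and 7.13 FPKM (0.34 ± 0.36, adjusted p = 0.648). The WT fall was deeper than the response of sh*Pax6* (difference −3.52 ± 0.51, adjusted p = 0.000493) and of JNK3 KO retinas (difference −4.89 ± 0.51, adjusted p = 5.03e-05), and both differences stayed called with TPM and with length correction. *Gabrb2* thus separated the 3 genotypes in the NMDA libraries without overlap, at under 1 FPKM in WT, at 3.18 and 1.6 in sh*Pax6* and at 7.07 and 7.13 in JNK3 KO. *Gabrb1* was scarcer, at 1.64 and 2 FPKM with PBS and 0.3 and 0.37 with NMDA in WT, 2.04 and 1.69 against 2.2 and 0.37 in sh*Pax6* and 0.92 and 0.85 against 1.05 and 0.7 in JNK3 KO retinas. Its WT call (−2.14 ± 0.63, adjusted p = 0.0156) did not withstand length correction (−0.96, adjusted p = 0.237) or leaving out WT PBS 1, WT PBS 2 or WT NMDA 1 (adjusted p = 0.0539, 0.0804 and 0.0719).

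Gamma subunits join alpha and beta subunits at synapses, and the delta subunit replaces gamma in receptors outside them. *Gabrg1* was at 2.91 and 2.48 FPKM with PBS and 0.31 and 0.39 with NMDA in WT, 1.33 and 1.57 against 0.37 and 0.64 in sh*Pax6* and 2.03 and 2 against 1.57 and 1.67 in JNK3 KO retinas. A fall was called for *Gabrg1* in WT (−2.64 ± 0.32, adjusted p = 7.8e-05, −1.93 length-corrected) and in sh*Pax6* retinas (−1.39 ± 0.32, adjusted p = 0.00976). The JNK3 KO value was −0.30 ± 0.32, adjusted p = 0.64. *Gabrg3*, at 2.92 and 2.17 against 1.11 and 1.39 in WT, 1.42 and 1.23 against 1.44 and 0.5 in sh*Pax6* and 2.53 and 1.62 against 1.64 and 1.49 FPKM in JNK3 KO retinas, was called in none of the 3 responses, and its WT value of −0.96 turned to 0.10 with length correction. With TPM it was −1.53 and was called lower (adjusted p = 0.0153). *Gabrd* had another pattern. It was at 9.51 and 8.38 FPKM with PBS and 7.4 and 7.7 with NMDA in WT, at 8.91 and 6.43 against 2.4 and 2.42 in sh*Pax6* and at 9.43 and 9.05 against 4.37 and 4.5 in JNK3 KO retinas. *Gabrd* fell 3.05-fold in sh*Pax6* (−1.61 ± 0.17, adjusted p = 0.000133) and 2.06-fold in JNK3 KO retinas (−1.04 ± 0.17, adjusted p = 0.00562), while it was not called in WT retinas (−0.24 ± 0.17, adjusted p = 0.248). In WT it was called lower once rescaled, at −0.81 with TPM (adjusted p = 0.00215) and −0.49 with length correction (adjusted p = 0.0306). The JNK3 KO call was lost without JNK3 KO PBS 1 (adjusted p = 0.0514) or JNK3 KO NMDA 1 (adjusted p = 0.0517). WT differed from sh*Pax6* retinas in *Gabrd* by 1.37 ± 0.24, adjusted p = 0.00126, called with both scalings, and from JNK3 KO by 0.80 ± 0.24, adjusted p = 0.0182, which was 0.22 (adjusted p = 0.469) with TPM and 0.47 (adjusted p = 0.141) with length correction. This second difference was also lost without WT PBS 2, JNK3 KO PBS 1 or JNK3 KO NMDA 1 (adjusted p = 0.0689, 0.0571 and 0.0548).

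The 3 *Gabrr* subunits form channels that respond slowly to GABA. *Gabrr1* was at 40.1 and 40.2 FPKM with PBS and 29 and 29.5 with NMDA in WT, 25.4 and 28.4 against 19.5 and 19.6 in sh*Pax6* and 38.9 and 36.5 against 43.7 and 41.5 in JNK3 KO retinas. It fell 1.38-fold in WT (−0.46 ± 0.08, adjusted p = 0.000605, −0.93 length-corrected) and 1.37-fold in sh*Pax6* retinas (−0.45 ± 0.08, adjusted p = 0.0019), and WT differed from JNK3 KO retinas by −0.63 ± 0.11, adjusted p = 0.000915. The JNK3 KO NMDA values of *Gabrr1* lay above the PBS values, at a log2 fold change of 0.18 ± 0.08, adjusted p = 0.189. *Gabrr2* was at 48.6 and 51.5 FPKM with PBS and 54.5 and 57.4 with NMDA in WT, 32.8 and 31.5 against 26.7 and 24.6 in sh*Pax6* and 46 and 45 against 48.7 and 48.5 in JNK3 KO retinas. In WT it was not called (0.16 ± 0.07, adjusted p = 0.0667), and its direction turned with scaling, to −0.41 with TPM (adjusted p = 0.000355) and −0.39 with length correction (adjusted p = 0.000966), both called lower. It fell in sh*Pax6* retinas (−0.33 ± 0.07, adjusted p = 0.00621), and the difference from WT of 0.49 ± 0.10, adjusted p = 0.00259 was −0.03 with TPM (adjusted p = 0.775) and 0.13 with length correction (adjusted p = 0.317). *Gabrr3*, on chromosome 16, was at 7.22 and 7.84 FPKM with PBS and 2.94 and 3.68 with NMDA in WT, 6.15 and 6.06 against 4.42 and 4.16 in sh*Pax6* and 6.68 and 7.22 against 10 and 9.28 in JNK3 KO retinas. Its WT fall (−1.17 ± 0.15, adjusted p = 0.000112, −1.03 length-corrected) contrasted with higher JNK3 KO values (0.47 ± 0.15, adjusted p = 0.0821), and the difference was −1.64 ± 0.21, adjusted p = 0.000174. The smaller sh*Pax6* fall (−0.50 ± 0.15, adjusted p = 0.032) lost its call without sh*Pax6* PBS 1, sh*Pax6* PBS 2 or sh*Pax6* NMDA 2 (adjusted p = 0.0899, 0.0716 and 0.0728).

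After NMDA the *Gabrr* subunits took a larger share of all GABA-A subunit FPKM. That share was 66.2% and 69% with PBS and 84.3% and 84.5% with NMDA in WT, 66.1% and 68.2% against 78.3% and 82.3% in sh*Pax6*, and 68.4% and 67.6% against 76.8% and 75.4% in JNK3 KO retinas. It was higher with NMDA than with PBS in every library of each genotype. The sum behind it was 145 and 144 against 103 and 107 FPKM in WT, 97.3 and 96.6 against 64.6 and 58.7 in sh*Pax6*, and 134 and 131 against 133 and 132 in JNK3 KO retinas. In JNK3 KO retinas the total was therefore nearly level while its make-up shifted. *Gabrr1* and *Gabrr2* are short, at 2286 and 2105 bases against a median of 5.98 kb for the genes tested here. In WT the median response of all genes went from 0.75 under 2 kb to −1.05 over 8 kb. These shares are descriptions without length correction. Neither they nor the part of gene length in them was tested.

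GABA-B receptors pair the ligand-binding subunit *Gabbr1* with *Gabbr2*, which couples to G proteins. *Gabbr1* was at 65.8 and 62.3 FPKM with PBS and 35.5 and 30.1 with NMDA in WT, 42.3 and 45.5 against 35.2 and 37.7 in sh*Pax6* and 56.5 and 58.9 against 50.3 and 54.8 in JNK3 KO retinas, and *Gabbr2* was at 14.2 and 12.8 FPKM with PBS and 2.32 and 2.91 with NMDA, 5.31 and 6.65 against 2.07 and 2.39 and 10.5 and 11.8 against 6.48 and 6.56. *Gabbr2* fell in all 3 genotypes, 5.03-fold in WT (−2.33 ± 0.17, adjusted p = 3.84e-06, −1.77 length-corrected), 2.6-fold in sh*Pax6* (−1.38 ± 0.17, adjusted p = 0.00043) and 1.69-fold in JNK3 KO retinas (−0.76 ± 0.17, adjusted p = 0.026). The JNK3 KO call of *Gabbr2* was lost when any of its 4 libraries was left out (adjusted p = 0.0961 without JNK3 KO PBS 1, 0.147 without JNK3 KO PBS 2, 0.137 without JNK3 KO NMDA 1 and 0.14 without JNK3 KO NMDA 2). *Gabbr1* fell less in WT (−0.97 ± 0.09, adjusted p = 1.7e-05, −0.27 length-corrected) and was not called in sh*Pax6* (−0.27 ± 0.09, adjusted p = 0.0573) or JNK3 KO retinas (−0.13 ± 0.09, adjusted p = 0.431). Rescaling made *Gabbr1* a called fall in sh*Pax6* retinas, at −0.32 with TPM (adjusted p = 0.0399) and −0.32 with length correction (adjusted p = 0.0236). The ratio of *Gabbr1* to *Gabbr2* FPKM consequently went from 4.64 and 4.87 to 15.3 and 10.3 in WT, from 7.96 and 6.83 to 17 and 15.8 in sh*Pax6*, and from 5.38 and 5 to 7.76 and 8.36 in JNK3 KO retinas. The deeper WT fall of *Gabbr1* than in sh*Pax6* retinas (difference −0.70 ± 0.13, adjusted p = 0.00189) was 0.05 with length correction. That against JNK3 KO retinas (−0.83 ± 0.13, adjusted p = 0.000581) was −0.05, so neither was separable from the length trend.

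Glycine receptors combine alpha subunits with the beta subunit *Glrb*, which ties them to the scaffold gephyrin. *Glrb* was at 35.8 and 33.5 FPKM with PBS and 4.19 and 5.24 with NMDA in WT, 15.8 and 14.6 against 11.4 and 8.47 in sh*Pax6* and 29.8 and 33.1 against 24 and 24 in JNK3 KO retinas. It fell 7.26-fold in WT (−2.86 ± 0.15, adjusted p = 5.25e-07, −2.63 length-corrected), and less in sh*Pax6* retinas (−0.62 ± 0.15, adjusted p = 0.0139), where it already stood at less than its WT level with PBS. The sh*Pax6* call was lost without sh*Pax6* PBS 1 (adjusted p = 0.0751) or sh*Pax6* NMDA 2 (adjusted p = 0.0632). The JNK3 KO value was −0.39 ± 0.15, adjusted p = 0.158. The WT fall of *Glrb* was deeper than in sh*Pax6* (difference −2.23 ± 0.22, adjusted p = 4.9e-05) and in JNK3 KO retinas (difference −2.47 ± 0.22, adjusted p = 1.73e-05), with both scalings too. With NMDA, *Glrb* was lowest in WT, intermediate in sh*Pax6* and highest in JNK3 KO libraries, with no overlap.

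*Glra1* was at 8.55 and 7 FPKM with PBS and 0.67 and 1.44 with NMDA in WT, 6.66 and 4.27 against 1.14 and 2.37 in sh*Pax6* and 3.64 and 4.01 against 6.64 and 6.32 in JNK3 KO retinas. It fell in WT (−2.85 ± 0.40, adjusted p = 0.000227, −3.27 length-corrected) and sh*Pax6* retinas (−1.63 ± 0.40, adjusted p = 0.0142), the latter not without sh*Pax6* PBS 1 or sh*Pax6* NMDA 1 (adjusted p = 0.0987 and 0.103). In JNK3 KO retinas, the NMDA values of *Glra1* lay above the PBS values (0.75 ± 0.40, adjusted p = 0.303), and the difference from WT was −3.59 ± 0.57, adjusted p = 0.000638. *Glra2* was at 5.04 and 5.59 FPKM with PBS and 0.64 and 1.49 with NMDA in WT, 3.15 and 2.89 against 0.5 and 1.03 in sh*Pax6* and 4.35 and 5.03 against 3.13 and 3.21 in JNK3 KO retinas. A fall was called for *Glra2* in WT (−2.32 ± 0.39, adjusted p = 0.000688, −2.49 length-corrected) and sh*Pax6* retinas (−1.92 ± 0.39, adjusted p = 0.00571). The JNK3 KO value was −0.55 ± 0.39, adjusted p = 0.453. *Glra3* was at 6.71 and 4.39 FPKM with PBS and 0.94 and 0.83 with NMDA in WT, 2.71 and 3.14 against 0.59 and 1.7 in sh*Pax6* and 4.29 and 4.82 against 5.28 and 6.21 in JNK3 KO retinas. It too fell in WT (−2.49 ± 0.41, adjusted p = 0.000558, −1.65 length-corrected) and sh*Pax6* retinas (−1.44 ± 0.41, adjusted p = 0.0261), where the call was lost without sh*Pax6* PBS 1, sh*Pax6* PBS 2 or sh*Pax6* NMDA 1 (−1.54, −1.33 and −0.75, adjusted p = 0.0766, 0.106 and 0.0995). *Glra4*, the scarcest gene tested, was at 1.5 and 0.92 FPKM with PBS and 0 and 0.35 with NMDA in WT, 1.56 and 0.87 against 0.33 and 0.52 in sh*Pax6* and 1.8 and 1.35 against 0.82 and 0.76 in JNK3 KO retinas. Its WT call (−2.59 ± 0.67, adjusted p = 0.00826, −3.19 length-corrected) was lost without WT PBS 1 (adjusted p = 0.0607). The WT NMDA values of *Glra4* are near the added 0.1, and over the alternatives its fold change ranged from −3.68 to −0.92. In limma with the spread of the compared groups alone it was not called (adjusted p = 0.0869). All 4 alpha subunits were thus called lower in WT with every scaling, and 3 of them in sh*Pax6* retinas.

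Summed over its 5 subunits, glycine receptor FPKM went from 57.6 and 51.4 to 6.44 and 9.35 in WT, from 29.9 and 25.8 to 13.9 and 14.1 in sh*Pax6*, and from 43.9 and 48.3 to 39.9 and 40.5 in JNK3 KO retinas. The NMDA sums were lower in every genotype without overlap, and lowest in WT. The ratio of *Glra1* to *Glra2* FPKM was 0.837 and 0.797 in JNK3 KO retinas with PBS and 2.12 and 1.97 with NMDA. In WT it went from 1.7 and 1.25 to 1.05 and 0.966, and in sh*Pax6* retinas from 2.11 and 1.48 to 2.28 and 2.3. *Gphn*, which anchors glycine and GABA-A receptors, was at 19.9 and 22 FPKM with PBS and 19 and 13.2 with NMDA in WT, 16.6 and 24.7 against 20.7 and 14.9 in sh*Pax6* and 20.8 and 25.6 against 15.9 and 15.5 in JNK3 KO retinas. It was called in none of the responses (−0.40 ± 0.24, adjusted p = 0.184, −0.39 length-corrected in WT). On the TPM scale the WT value of *Gphn* was −0.97 and was called (adjusted p = 0.0069).

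*Gad1* and *Gad2* encode the glutamate decarboxylases that make GABA, and *Abat* the transaminase that breaks it down. *Gad1* was at 108 and 105 FPKM with PBS and 35.7 and 36.5 with NMDA in WT, 91.4 and 79.3 against 20.1 and 26.3 in sh*Pax6* and 88.8 and 92.8 against 71.7 and 75.3 in JNK3 KO retinas. It fell 2.93-fold in WT (−1.55 ± 0.12, adjusted p = 3.92e-06, −0.87 length-corrected) and 3.71-fold in sh*Pax6* retinas (−1.89 ± 0.12, adjusted p = 6.56e-06). The JNK3 KO value was −0.30 ± 0.12, adjusted p = 0.147. *Gad2* was at 11.6 and 10.8 FPKM with PBS and 2.51 and 2.62 with NMDA in WT, 8.54 and 9.76 against 2.52 and 2.2 in sh*Pax6* and 9.32 and 9.5 against 8.45 and 9.31 in JNK3 KO retinas. It fell 4.26-fold in WT (−2.09 ± 0.14, adjusted p = 1.89e-06, −1.64 length-corrected) and 3.76-fold in sh*Pax6* retinas (−1.91 ± 0.14, adjusted p = 1.6e-05), against −0.08 ± 0.14, adjusted p = 0.792 in JNK3 KO retinas. WT differed from JNK3 KO retinas in *Gad1* (−1.25 ± 0.17, adjusted p = 0.000212) and *Gad2* (−2.0 ± 0.20, adjusted p = 3.43e-05), and neither gene was called between WT and sh*Pax6* responses (0.33 ± 0.17, adjusted p = 0.128 and −0.18 ± 0.20, adjusted p = 0.485). With length correction the *Gad1* difference from JNK3 KO retinas was −0.48 (adjusted p = 0.0436), and its fall was called as deeper in sh*Pax6* than in WT retinas (1.07, adjusted p = 0.00101). *Abat* was at 33 and 31.8 FPKM with PBS and 6.64 and 6.9 with NMDA in WT, 23.1 and 23.3 against 10.6 and 13.3 in sh*Pax6* and 27.6 and 31.2 against 20.6 and 20.2 in JNK3 KO retinas. It fell in WT (−2.24 ± 0.11, adjusted p = 4.06e-07, −1.55 length-corrected), in sh*Pax6* (−0.96 ± 0.11, adjusted p = 0.000298) and in JNK3 KO retinas (−0.52 ± 0.11, adjusted p = 0.0215). The JNK3 KO call was lost when any of its libraries was left out (adjusted p = 0.0593 without JNK3 KO PBS 1, 0.133 without JNK3 KO PBS 2, 0.107 without JNK3 KO NMDA 1 and 0.133 without JNK3 KO NMDA 2). The *Abat* fall was deepest in WT, by −1.28 ± 0.16, adjusted p = 0.000219 relative to sh*Pax6* and −1.72 ± 0.16, adjusted p = 2.63e-05 relative to JNK3 KO retinas. With length correction these differences were −0.53 and −0.94.

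At the level of transcripts, the make-up of *Gad1* also differed in the WT NMDA libraries, whose mean transcript length was short. The longest coding transcript, Gad1-201 (3355 bases, 17 exons), was at 77.2 and 74.9 FPKM with PBS and 3.79 and 4.1 with NMDA in WT, 45.9 and 64.8 against 6.69 and 11.3 in sh*Pax6* and 61.6 and 60.1 against 56.4 and 46.7 in JNK3 KO retinas. Gad1-206, annotated as a processed transcript without a coding sequence, has 2996 bases and ends 2 bases short of the same 3′ end, and was at 21.3 and 23 against 29.4 and 30.4, 22.8 and 10.1 against 12.3 and 3.98 and 22.7 and 25.6 against 11 and 22.6. Gad1-201 therefore made up 72.4% and 71.8% of *Gad1* FPKM in WT retinas with PBS but 10.7% and 11.3% with NMDA. In sh*Pax6* retinas the share was 50.8% and 83.4% against 35.2% and 44.4%, and in JNK3 KO retinas 70.4% and 65.9% against 79.8% and 62.8%. Such estimates divide reads between transcripts that share exons, and no test was made on them. A change in transcripts and a loss of RNA quality that leaves 3′ fragments cannot be told apart here.

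*Slc32a1* encodes the vesicular transporter that loads GABA and glycine into synaptic vesicles. It was at 33.6 and 33.3 FPKM with PBS and 22.9 and 21 with NMDA in WT, 23.5 and 22.5 against 8.62 and 8.05 in sh*Pax6* and 34.3 and 34.6 against 21.8 and 23.3 in JNK3 KO retinas. *Slc32a1* fell in all 3 genotypes, 1.53-fold in WT (−0.61 ± 0.08, adjusted p = 0.000163, −0.89 length-corrected), 2.73-fold in sh*Pax6* (−1.45 ± 0.08, adjusted p = 3.76e-06) and 1.53-fold in JNK3 KO retinas (−0.61 ± 0.08, adjusted p = 0.00222). The sh*Pax6* fall was deeper than that of WT (difference 0.85 ± 0.12, adjusted p = 0.000333, and 0.33 and 0.74 with TPM and length correction). The WT minus JNK3 KO difference was 0.00 ± 0.12, adjusted p = 0.993, but −0.59 with TPM (adjusted p = 0.0023) and −0.36 with length correction (adjusted p = 0.0349), both called. *Slc32a1* and *Gabrd* were the genes whose fall was called deeper in sh*Pax6* than in WT retinas on FPKM and with each of these scalings. *Slc6a5*, the glycine transporter of glycinergic terminals, was at 5.54 and 5.38 FPKM with PBS and 1.4 and 1.39 with NMDA in WT, 4.06 and 3.37 against 1.7 and 1.41 in sh*Pax6* and 4.98 and 4.4 against 5.49 and 5.49 in JNK3 KO retinas. A fall was called for *Slc6a5* in WT (−1.89 ± 0.18, adjusted p = 2.03e-05, −1.26 length-corrected) and sh*Pax6* retinas (−1.20 ± 0.18, adjusted p = 0.00126) but not in JNK3 KO retinas (0.23 ± 0.18, adjusted p = 0.523), and the last differed from WT by −2.12 ± 0.26, adjusted p = 0.000137. *Slc6a9*, which encodes the other plasma membrane glycine transporter, was at 65.3 and 65.9 FPKM with PBS and 40 and 35.6 with NMDA in WT, 59.9 and 54.4 against 48.2 and 41 in sh*Pax6* and 62.6 and 65.4 against 58.2 and 58 in JNK3 KO retinas. Its fall was shallower, 1.74-fold in WT (−0.80 ± 0.09, adjusted p = 5.78e-05, −0.47 length-corrected) and 1.28-fold in sh*Pax6* retinas (−0.36 ± 0.09, adjusted p = 0.0163). The sh*Pax6* call was lost without sh*Pax6* PBS 1 (adjusted p = 0.0947) or sh*Pax6* NMDA 2 (adjusted p = 0.0691).

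*Slc12a5* encodes KCC2, which keeps chloride low in neurons so that GABA and glycine hyperpolarize them. The gene was at 167 and 161 FPKM with PBS and 122 and 129 with NMDA in WT, 133 and 121 against 106 and 105 in sh*Pax6* and 141 and 148 against 135 and 138 in JNK3 KO retinas. The fall was 1.31-fold in WT (−0.39 ± 0.06, adjusted p = 0.000342) and 1.2-fold in sh*Pax6* retinas (−0.26 ± 0.06, adjusted p = 0.00877), but with length correction the WT value turned to 0.27 (adjusted p = 0.00353). The WT minus JNK3 KO difference (−0.30 ± 0.08, adjusted p = 0.0127) likewise turned to 0.44 with length correction (adjusted p = 0.00248). The FPKM assigned to its transcripts differed far more, again in the WT NMDA libraries with their short mean transcript length. Slc12a5-201 (6028 bases, 26 exons), the main coding transcript, was at 115 and 111 FPKM with PBS and 20 and 19.5 with NMDA in WT, 100.62 and 87 against 74.8 and 67.5 in sh*Pax6* and 105 and 107 against 91.6 and 90.1 in JNK3 KO retinas. Slc12a5-205, a retained intron transcript of 2 exons at the 3′ end of the gene, was at 3.64 and 1.77 against 72.5 and 60.8, 0 and 1.26 against 0.21 and 2.75 and 2.21 and 3 against 3.64 and 2.36. A coding transcript of 1202 bases, which ends 4 bases short of the same 3′ end, was at 0 and 0 against 17.6 and 43.9 in WT and was listed at 0 in the other 8 libraries. Slc12a5-201 hence fell from 69% and 68.8% of the gene's FPKM to 16.4% and 15.1% in WT retinas, and stayed at 64.1% to 76.8% in the other 8 libraries. The FPKM assigned to *Gabrr2* also moved between transcripts, from one of 1933 bases (37.8 and 30.4 against 2.43 and 13.3 in WT and 29.9 and 18.9 against 5.77 and 10 in sh*Pax6* retinas) to one of 1820 bases that starts 113 bases later (6.94 and 14.8 against 52 and 41.2 and 0 and 9.01 against 17 and 11.7). In JNK3 KO retinas the longer was at 31.9 and 29.1 against 33.7 and 37.1 and the shorter at 11.9 and 14.9 against 11 and 7.66. The longer and the shorter share their 3′ end and most of their sequence, so reads were divided between them by estimate. Replicates differed in this split, and no test was made on it.

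**Figure D4:**
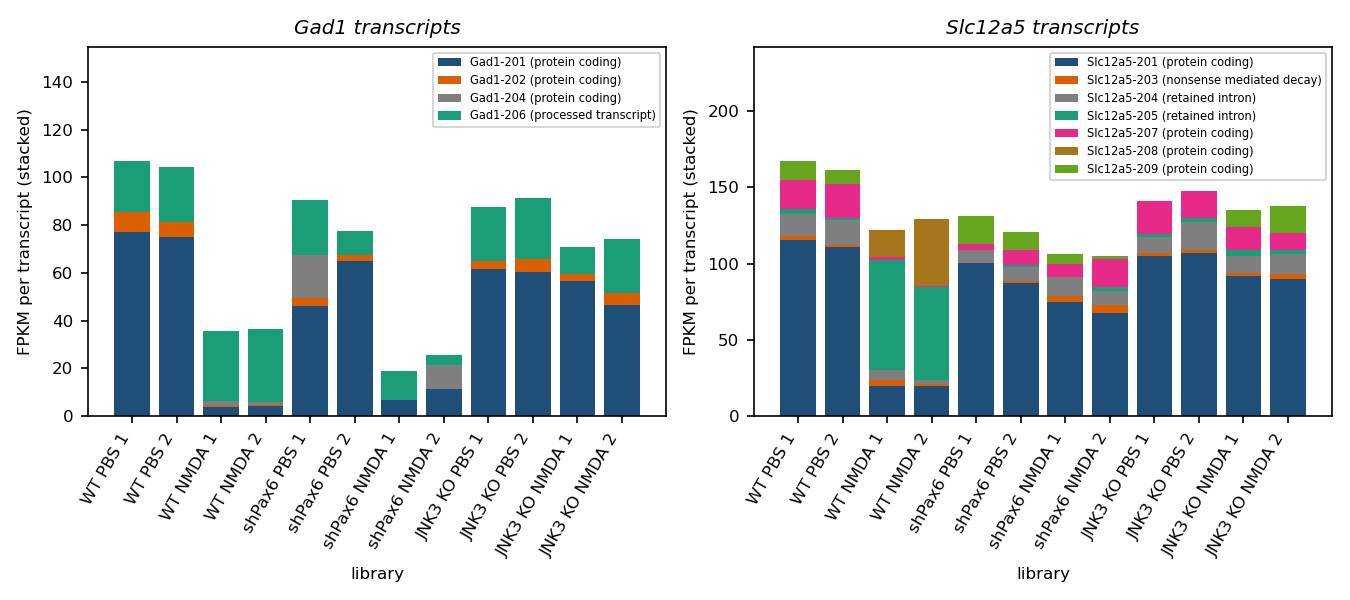
Stacked FPKM (y axis) of the annotated transcripts of *Gad1* (left) and *Slc12a5* (right) in each of the 12 libraries (x axis), with transcripts above 1 FPKM in at least 1 library in colour. In the WT NMDA libraries Gad1-201 and Slc12a5-201 (dark blue) shrink to 3.79 and 4.1 and to 20 and 19.5 FPKM, and Gad1-206 and Slc12a5-205 (green) are the largest parts of the bars.

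Under PBS, 9 genes were lower in sh*Pax6* than in WT retinas, against 11.2% of all genes tested, and limma called 0 higher (0 at unadjusted p under 0.05), against 5.36%. They were *Gabra2*, *Gabrr1*, *Gabrr2*, *Gabbr1*, *Gabbr2*, *Glrb*, *Abat*, *Slc32a1* and *Slc12a5*. The largest falls were those of *Gabra2* (−1.25 ± 0.32, adjusted p = 0.0277), *Glrb* (−1.18 ± 0.15, adjusted p = 0.00104) and *Gabbr2* (−1.17 ± 0.17, adjusted p = 0.00228), and those of *Gabrr1* (−0.58 ± 0.08, adjusted p = 0.00106), *Gabrr2* (−0.64 ± 0.07, adjusted p = 0.00036) and *Slc32a1* (−0.54 ± 0.08, adjusted p = 0.00239) were smaller. The median of the 26 genes was −0.53 against −0.06 for all genes. Of all calls here, 67.6% were lower, or 72.3% with TPM and 52.9% with length correction, and 9 inhibitory synapse genes were lower with each. Without WT PBS 1, WT PBS 2 or sh*Pax6* PBS 1 the call of *Gabra2* was lost (adjusted p = 0.141, 0.126 and 0.147), and that of *Abat* was lost without any of the 4 libraries (adjusted p = 0.058 to 0.12). RGC markers were lower in the same comparison, 13 of 21 with a median of −1.53. So were 7 of 23 amacrine markers, with a median of −0.41. Bipolar markers were lower in 7 of 19 (median −0.42), horizontal markers in 4 of 9 (−0.68) and neutrophil markers in 7 of 9 (−3.34). Rod markers were higher in 14 of 14 (median 0.49) and cone markers in 11 of 12 (0.79). The part of these marker shifts in the falls was not tested. Between JNK3 KO and WT retinas with PBS, limma called 0 lower (2 at unadjusted p under 0.05) and 0 higher (0 at unadjusted p under 0.05), against 0.407% and 1.1% of all genes. The 2 were *Glra1* (−1.0 ± 0.40, adjusted p = 0.281) and *Slc12a5* (−0.18 ± 0.06, adjusted p = 0.174), and the median was −0.16 against 0.00. All calls in this comparison were lower in 26.9%, or 43.4% with TPM and 25.2% with length correction. With quantile normalization the balance turned, to 43 genes higher and 91 lower.

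Genes that work with these synapses were described from 2 further lists. Of 28 synapse partners tested, which include neuroligins, receptor-trafficking proteins and GABA-B auxiliary subunits, 20 were lower and 4 higher in WT, 11 and 4 in sh*Pax6*, and 4 and 1 in JNK3 KO retinas. Their medians were −0.87, −0.22 and −0.19, nearer to those of all genes than the medians of the receptor and enzyme genes, and the WT median was −0.35 with length correction. The largest rises in WT were those of *Gabarap*, which links GABA-A receptors to microtubules, at 110.1 and 115 against 301 and 319 FPKM (1.46 ± 0.05, adjusted p = 6.85e-08, 0.79 length-corrected), and of *Dbi*, which encodes a benzodiazepine site ligand, at 216 and 243 against 528 and 518 FPKM (1.19 ± 0.07, adjusted p = 7.13e-07, 0.35 length-corrected). *Gabarap* and *Dbi* rose in sh*Pax6* retinas too (0.82 and 1.11, adjusted p = 8.21e-06 and 5.77e-06), and were not called in JNK3 KO retinas (−0.14 and −0.12, adjusted p = 0.127 and 0.314). The largest falls were those of the GABA-A auxiliary subunit *Shisa7*, at 5.68 and 4.55 against 0.83 and 1.18 FPKM (−2.25 ± 0.40, adjusted p = 0.000954, −1.70 length-corrected), and the synaptic adhesion gene *Slitrk3*, at 5.72 and 5.45 against 1.08 and 1.61 FPKM (−2.0 ± 0.28, adjusted p = 0.000227, −1.73 length-corrected). Summed FPKM of the partners was 1380 and 1430 against 1690 and 1670 in WT, 1260 and 1230 against 1480 and 1450 in sh*Pax6* and 1430 and 1420 against 1260 and 1280 in JNK3 KO retinas, and *Gabarap* and *Dbi* weigh heavily in these sums.

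Of 24 further transport and metabolism genes, 13 were lower and 4 higher in WT, and 4 lower and 9 higher in sh*Pax6* retinas, with medians of −0.63 and 0.27. In JNK3 KO retinas 2 were higher and limma called 0 lower (1 at unadjusted p under 0.05), with a median of 0.09. *Slc6a11*, a GABA transporter of glia, was at 53.9 and 50.7 FPKM with PBS and 12.9 and 13.5 with NMDA in WT, 50.2 and 47.5 against 27.1 and 28.2 in sh*Pax6* and 45.5 and 46.4 against 37.7 and 40.1 in JNK3 KO retinas, and fell in the first 2 (−1.97 ± 0.07, adjusted p = 6.21e-08, −1.66 length-corrected, and −0.82 ± 0.07, adjusted p = 4.13e-05). The largest rises in WT were those of *Shmt1*, a serine hydroxymethyltransferase that makes glycine, at 0.27 and 0.51 against 1.97 and 1.21 FPKM (1.79 ± 0.46, adjusted p = 0.00784, 1.83 length-corrected), and *Akr7a5*, a succinic semialdehyde reductase, at 15.2 and 15.2 against 44.6 and 42.3 FPKM (1.51 ± 0.15, adjusted p = 2.59e-05, 0.82 length-corrected). Summed FPKM of these genes was 1060 and 1040 against 714 and 687 in WT, 1140 and 1130 against 1220 and 1240 in sh*Pax6* and 987 and 980 against 1050 and 1040 in JNK3 KO retinas.

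Markers of the other retinal cells gave a mixed background to these falls. Bipolar cells, which carry many of the *Gabrr* and glycine receptors, had 12 of 19 markers lower and 3 higher in WT, 5 and 2 in sh*Pax6*, and 1 and 5 in JNK3 KO retinas. Their WT median was −0.71, or −0.34 with length correction. Their summed FPKM was 951 and 941 against 1880 and 1860 in WT, where *Gng13* alone was at 225 and 214 against 960 and 935 (log2 fold change 2.11, 1.27 length-corrected). It was 752 and 711 against 667 and 634 and 973 and 931 against 973 and 968 in sh*Pax6* and JNK3 KO retinas. Horizontal cells, which also use GABA, had 5 of 9 markers lower and 2 higher in WT, 2 and 1 in sh*Pax6*, and summed FPKM of 149 and 148 against 249 and 252 and 97 and 88.9 against 95.7 and 97.4, led by *Tpm3*. In JNK3 KO retinas 1 horizontal marker was higher and limma called 0 lower (1 at unadjusted p under 0.05), at 167 and 165 against 175 and 171. Rod markers were lower in 5 of 14 and higher in 7 in WT, and lower in 13 and higher in 1 in sh*Pax6* and in 11 and 1 in JNK3 KO retinas. Cone markers, led by *Guca1a*, were lower in 5 of 12 and higher in 4 in WT and lower in 11 and higher in 1 in sh*Pax6* retinas, and 8 were lower in JNK3 KO retinas. Müller glia markers, led by *Cp*, were higher in 4 of 14 and lower in 8 in WT, in 8 and 3 in sh*Pax6*, and in 5 and 4 in JNK3 KO retinas. Photoreceptor and glial lists therefore did not follow the inhibitory synapse genes across genotypes.

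Microglia and macrophage markers, led by *Lyz2*, were higher in 9 of 15 and lower in 4 in WT, higher in 11 in sh*Pax6*, and higher in 2 and lower in 5 in JNK3 KO retinas. Their sums were 255 and 278 against 524 and 511, 337 and 308 against 1190 and 1200 and 258 and 254 against 211 and 206 FPKM. Neutrophil markers, led by *S100a8*, were higher in 6 of 9 in both WT and sh*Pax6* retinas, and lower in 5 in JNK3 KO retinas. The neutrophil sums were 229 and 253 against 1980 and 2020, 10.4 and 8.39 against 71.1 and 81.7 and 171 and 184 against 17.5 and 18.3. The neutrophil sums of sh*Pax6* retinas stayed under those of WT PBS retinas even after NMDA. Astrocyte markers (led by *Gfap*) were lower in 2 of 4 in WT, higher in 1 in sh*Pax6* and lower in 1 in JNK3 KO retinas. Endothelium and pericyte markers (*Kdr*) were higher in 1 of 9 and lower in 2 in WT, and higher in 2 in sh*Pax6* and 1 in JNK3 KO retinas. Markers of the retinal pigment epithelium (*Ttr*) were higher in 2 of 7 and lower in 2 in WT and lower in 6 in sh*Pax6* retinas. Lens markers (*Cryaa*) were higher in 10 of 14 in WT, in 3 with 2 lower in sh*Pax6*, and in 3 in JNK3 KO retinas. No marker on any of these lists was at 0 in all 12 libraries, and the part of cell composition in the fall of the inhibitory synapse genes was not tested.

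**Figure D5:**
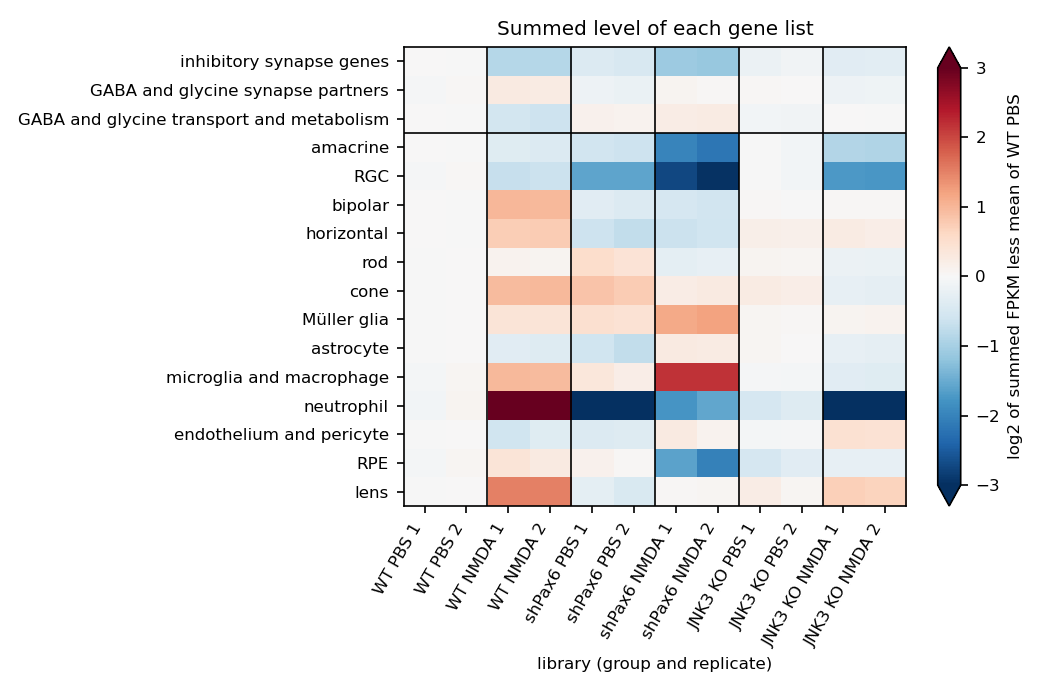
Log2 of the summed FPKM of each gene list (rows) in each library (columns), less the mean of the 2 WT PBS libraries, with the colour scale ending at −3 and 3. The row of inhibitory synapse genes is blue in WT NMDA and sh*Pax6* NMDA libraries, RGC markers are blue in the NMDA libraries of all 3 genotypes and in sh*Pax6* PBS, and neutrophil markers are red in WT NMDA alone.

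The 250 bases before the start site were searched on both strands for letters known from the JNK target AP-1 (TGANTCA) and for paired homeodomain palindromes in which TAAT and ATTA lie 2 or 3 bases apart, since *Pax6* encodes a protein with a paired domain and a homeodomain. Promoter sequences from RefSeq (GRCm38.p6) matched 26 of the 29 genes, with 34 promoters. TGANTCA was found before 2 genes, *Slc12a5* and *Slc6a5*, and in 6.75% of all 32851 promoters. The palindrome with 2 bases between was found before *Gabrg1* alone and in 0.384% of all promoters, and that with 3 before none of the genes and in 0.463% of all promoters. The window of *Gabrg1* (chr5:70842618-70842867, minus strand, GRCm38.p6), which holds no annotated exon, is shown for this rare match, with the palindrome in capitals.

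*Gabrg1* promoter: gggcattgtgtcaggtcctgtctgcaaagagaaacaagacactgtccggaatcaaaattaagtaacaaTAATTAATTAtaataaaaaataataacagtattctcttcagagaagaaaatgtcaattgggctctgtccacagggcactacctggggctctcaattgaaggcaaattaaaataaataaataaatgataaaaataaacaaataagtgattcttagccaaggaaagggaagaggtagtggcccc

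These matches describe letters alone and say nothing of whether a factor binds there. With PBS, *Gabrg1* was at 2.91 and 2.48 FPKM in WT and 1.33 and 1.57 in sh*Pax6* retinas (−0.85 ± 0.32, adjusted p = 0.106), a difference that was not called.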

How the data were processed

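RNA-seq of poly(A) RNA from 12 mouse retina libraries was aligned by the authors to GRCm38.p6 with STAR 2.7.1a and quantified with RSEM 1.3.3, and their own comparisons used edgeR 3.36.0. FPKM of genes and transcripts were used as the authors deposited them. FPKM keep no read counts, so depth and counting error are unknown, and precision was judged from replicates. limma 3.58.1 (R 4.3.3, lmFit and eBayes with trend) was fitted to log2(FPKM + 0.1) of all 12 libraries with 6 group means, leaving 6 residual degrees of freedom, for the 16471 genes with a mean above 1 FPKM in at least 1 group. P-values were adjusted by Benjamini-Hochberg over all of them. The fit was tested on simulated data. Gene lengths came from GENCODE M21, which covered 99.8% of tested genes, and 141374 of 142699 transcripts (99.1%) were matched by identifier. Length correction subtracted a lowess trend (span 0.3) from each library. Cys-loop sequences came from the GENCODE M21 transcripts, and promoters from RefSeq (GRCm38.p6), which matched 26 of the 29 genes. Every one of the 29 genes is accounted for, beside *Pax6*, *Mapk10*, the 2 largest rises and falls in WT of each pathway list, and the most abundant gene of each marker list. Results for 2 genes that this rule selected are not reported. The genes, lists and comparisons were chosen with earlier results of these data known.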

Additional observations from a re-analysis of the deposited data

Results flagged for a closer look

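The response to NMDA differed between WT and sh*Pax6* retinas, by the interaction test in limma at an adjusted p under 0.05, in 11 of the 26 genes, where 31.4% of all genes were called lower and 18.3% higher, so these genes did not exceed the background. WT fell further by a log2 difference of −3.52 in *Gabrb2*, −2.23 in *Glrb*, −1.28 in *Abat*, −1.25 in *Gabrg1*, −0.95 in *Gabbr2*, −0.70 in *Gabbr1* (0.05 with length correction), −0.67 in *Gabrr3* and −0.44 in *Slc6a9*, and the WT response was the higher by 1.37 in *Gabrd*, 0.85 in *Slc32a1* and 0.49 in *Gabrr2* (−0.03 with TPM). The adjusted p of *Gabrg1* was 0.0441, and it lost its call without WT PBS 1, WT PBS 2, WT NMDA 1 or sh*Pax6* PBS 1 (adjusted p = 0.117, 0.0676, 0.0878 and 0.084). With length correction the calls of *Gabrg1* (−0.48, adjusted p = 0.427), *Gabbr2* (−0.32, adjusted p = 0.335), *Gabrr3* (−0.40, adjusted p = 0.171), *Slc6a9* (0.00, adjusted p = 0.978) and *Gabrr2* (0.13, adjusted p = 0.317) were lost too. *Gabrr3* lost its call without WT PBS 2 or WT NMDA 1 (adjusted p = 0.0816 and 0.0619), and *Slc6a9* without WT PBS 1, WT PBS 2, WT NMDA 2 or sh*Pax6* PBS 2 (adjusted p = 0.0529, 0.0571, 0.067 and 0.0615).

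Between WT and JNK3 KO retinas the response differed in 19 of the 26 genes, where 27.9% of all genes were called lower and 23.5% higher. WT fell further by −4.89 in *Gabrb2*, −3.59 in *Glra1*, −2.82 in *Glra3*, −2.47 in *Glrb*, −2.34 in *Gabrg1*, −2.12 in *Slc6a5*, −2.0 in *Gad2*, −1.77 in *Glra2*, −1.72 in *Abat*, −1.64 in *Gabrr3*, −1.57 in *Gabbr2* and −1.53 in *Gabra2*. Smaller differences were −1.25 in *Gad1*, −1.04 in *Gabra3*, −0.83 in *Gabbr1*, −0.66 in *Slc6a9*, −0.63 in *Gabrr1* and −0.30 in *Slc12a5* (0.44 with length correction), and the WT response was the higher in *Gabrd*, by 0.80. *Gabra2* lost its call without WT PBS 1 or 2 or any JNK3 KO library (adjusted p = 0.0511 to 0.0621), and *Glra2* without any library but WT NMDA 2 (adjusted p = 0.0526 to 0.0777). With length correction the calls of *Gabra2* (−0.76, adjusted p = 0.214), *Gabbr1* (−0.05, adjusted p = 0.784), *Slc6a9* (−0.32, adjusted p = 0.0742) and *Gabrd* (0.47, adjusted p = 0.141) were lost. Both comparisons use the same WT libraries, whose NMDA pair stood apart in transcript length.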

How the results depend on the processing

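All alternatives were set before these fits were run, with earlier results of these data known, and none was added. Apart from the counts given here, each count of inhibitory synapse genes stayed within 1.5 times its value under a pseudocount of 1, no filter or one on the overall mean, TPM, quantile normalization, length correction and the study's thresholds. With length correction, 1 gene was higher in WT retinas, and the WT minus sh*Pax6* counts were 5 higher and 3 lower. With TPM, WT minus sh*Pax6* had 14 lower, and WT minus JNK3 KO 0 higher. With the study's thresholds on p and fold change (unadjusted p under 0.05 and absolute log2 fold change above 1, without its limit on the variance-mean ratio), 13 were lower in sh*Pax6*, 1 in JNK3 KO, 3 in sh*Pax6* against WT with PBS, 1 higher and 4 lower in WT minus sh*Pax6*, and 0 higher in WT minus JNK3 KO. With the spread of the compared groups alone, 4 were lower in sh*Pax6*, 5 in sh*Pax6* against WT with PBS, and 5 in WT minus sh*Pax6*. With quantile normalization, 1 was lower in JNK3 KO against WT with PBS. Leaving out each library in turn gave 1 to 2 lower in JNK3 KO retinas, 5 to 11 lower and 3 to 5 higher in WT minus sh*Pax6*, and 0 to 1 higher in WT minus JNK3 KO. Among called genes, the signs that reversed were those of *Slc12a5* with length correction (0.27 in WT and 0.44 in WT minus JNK3 KO), *Gabbr1* in WT minus sh*Pax6* with length correction (0.05) and *Gabrr2* there with TPM (−0.03), and the cause was not tested beyond these scalings. Genes that were not called also changed sign, such as *Slc12a5* in WT minus sh*Pax6* (−0.12 to 0.60 with length correction, adjusted p = 0.000536) and *Gabrr2* in WT minus JNK3 KO (0.07 to −0.60, adjusted p = 0.000906). Of 764 single-gene calls over the alternatives, 678 were kept, 82 lost and 4 reversed, and of 460 with a library left out, 397 were kept and 63 lost.

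Replicate numbers did not pair the libraries, since the correlation of same-numbered deviations between 15 pairs of groups was −0.1 to 0.09. With the replicate number as a block, 22, 20 and 4 genes lower in WT, sh*Pax6* and JNK3 KO retinas became 22, 19 and 4, and 8 lower in WT minus sh*Pax6* became 7. Depth is unknown, so the precision of genes near 1 FPKM, such as *Glra4* and *Gabrb1*, rests on 2 libraries a group.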
